A study of Homo sapiens with 8 samples.

Results

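The 45 mitosis and spindle genes described here were picked by name from the 61544 gene entries of each deposited count table, by their known roles in cell division. They comprise the cyclin-CDK switch (5 genes), anaphase ubiquitylation (3), mitotic kinases and the spindle checkpoint (7), the chromosomal passenger complex (4), centromere and kinetochore proteins (6), kinesin motors (8), spindle microtubule proteins (7), cytokinesis (2), the mitotic chromosome and proliferation markers TOP2A and MKI67, and the transcription factor FOXM1. RNA sequencing measured them in 2 human leukaemia cell lines, both established from acute myeloid leukaemia: MOLM-13, of monocytic type, and HEL, with features of the erythroid and megakaryocytic lineages. In each line, DDX6 shRNA cells (DDX6 knockdown in the labels) were compared with control shRNA cells (WT in the labels), with 2 libraries per group and 8 in all. All cells had been transduced with shRNA lentivirus, selected with puromycin and cultured in serum-supplemented RPMI medium. DDX6 is a DEAD-box RNA helicase of P-bodies, cytoplasmic granules that hold mRNA out of translation. A single DDX6 hairpin was used per line as far as the column names show; a hairpin number stands in the HEL column names and not in those of MOLM-13, so the hairpins may or may not be the same. The labels do not say that replicates were separate cultures, so every p-value rests on the variation among these libraries alone, and that variation may be technical.

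Cells enter mitosis when the kinase CDK1, bound to cyclin B, becomes active. Spindle microtubules, moved by kinesins and attached to centromeres through kinetochores, line up the chromosomes while the checkpoint proteins of the MAD and BUB families hold back the anaphase-promoting complex (APC/C). Once the checkpoint is satisfied, APC/C with CDC20 marks cyclin B and securin for destruction and the sister chromatids part. Transcripts of most of these genes are made late in the cell cycle under the MuvB, MYBL2 and FOXM1 regulators, and so their levels in bulk RNA are widely read as a measure of cycling. In bulk RNA, fewer cells in G2 or mitosis and less of the RNA in each such cell cannot be told apart.

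Promoters of late cell cycle genes often carry the cell cycle genes homology region (CHR), searched here as TTTGAA or TTCGAA, and the CCAAT box bound by NF-Y, both on either strand. The RefSeq promoter table (GRCh38.p14) held a window of 250 bases before to 50 after the gene start for 38 of the 45 members. A CHR word stood in 29 of them (76.3%), against 16.6% of all 27305 promoters and 11.5% of the 11375 promoters of genes tested here. A CCAAT word stood in 29 (76.3%), against 35.7% of all promoters and 36.4% of those of tested genes, and both words in 24 (63.2%), against 6.58% and 4.81%. The 5 promoters printed next, from 250 bases before to 30 after the start, belong to the members with the smallest adjusted p in either line among those with a CHR word. Capitals mark CHR words (TTTGAA, or TTCAAA on the other strand) and CCAAT words (CCAAT, or ATTGG on the other strand). Those of MKI67 (chr10:128126394-128126673) and ASPM (chr1:197146640-197146919) are on the minus strand, and those of CDK1 (chr10:60778081-60778360), PLK1 (chr16:23678639-23678918) and CDC20 (chr1:43358731-43359010) on the plus strand.
MKI67: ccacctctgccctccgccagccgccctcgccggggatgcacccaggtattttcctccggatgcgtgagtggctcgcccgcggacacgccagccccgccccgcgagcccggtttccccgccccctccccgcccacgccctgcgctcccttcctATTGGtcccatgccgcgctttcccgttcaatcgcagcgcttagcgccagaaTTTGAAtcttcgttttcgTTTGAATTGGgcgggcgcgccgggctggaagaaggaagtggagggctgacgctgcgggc
ASPM: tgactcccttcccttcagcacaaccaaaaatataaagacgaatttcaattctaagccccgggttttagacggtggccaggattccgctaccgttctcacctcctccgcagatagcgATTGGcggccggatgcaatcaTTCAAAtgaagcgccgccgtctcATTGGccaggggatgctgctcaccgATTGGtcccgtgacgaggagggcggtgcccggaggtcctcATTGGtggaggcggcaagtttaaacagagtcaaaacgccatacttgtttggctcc
CDK1: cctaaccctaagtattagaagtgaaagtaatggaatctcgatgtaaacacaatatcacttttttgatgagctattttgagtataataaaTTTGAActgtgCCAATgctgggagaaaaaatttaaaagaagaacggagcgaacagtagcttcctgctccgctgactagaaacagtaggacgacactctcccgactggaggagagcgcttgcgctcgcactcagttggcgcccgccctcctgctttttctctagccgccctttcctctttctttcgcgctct
PLK1: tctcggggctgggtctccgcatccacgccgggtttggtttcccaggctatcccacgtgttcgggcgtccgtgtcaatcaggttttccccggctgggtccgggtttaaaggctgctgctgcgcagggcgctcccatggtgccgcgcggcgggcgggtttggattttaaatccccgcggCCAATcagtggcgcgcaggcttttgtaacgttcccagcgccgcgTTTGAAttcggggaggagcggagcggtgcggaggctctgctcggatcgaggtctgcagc
CDC20: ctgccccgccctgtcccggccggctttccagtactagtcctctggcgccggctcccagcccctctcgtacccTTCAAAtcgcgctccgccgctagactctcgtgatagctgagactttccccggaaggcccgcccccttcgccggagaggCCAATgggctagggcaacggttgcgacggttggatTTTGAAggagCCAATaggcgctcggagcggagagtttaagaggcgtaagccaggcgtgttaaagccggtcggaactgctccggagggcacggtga
In MKI67 the second CHR word starts 29 bases before the gene start and shares 1 base with a CCAAT word on the other strand. The CHR word of PLK1 also starts 29 bases before the gene start, and that of CDK1 161 bases before it. A match is a stretch of letters and not a shown binding site.

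**Figure D1:**
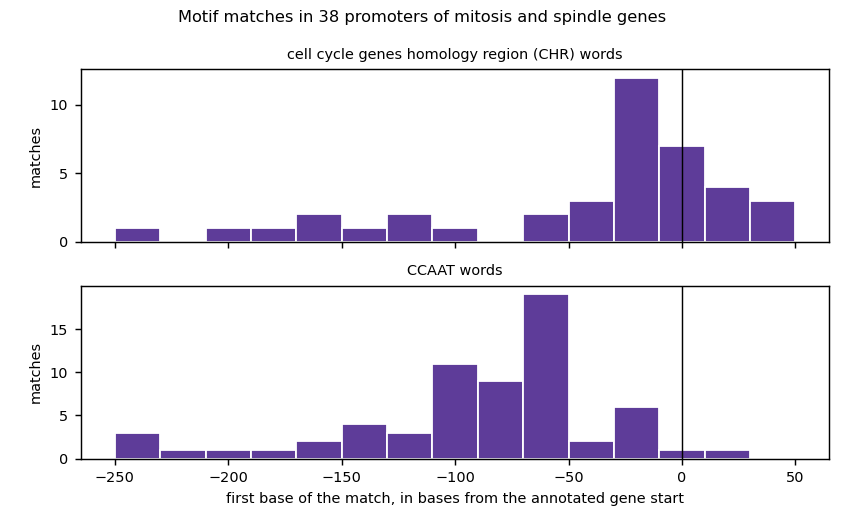
Number of CHR words (upper panel) and CCAAT words (lower panel) by the distance of their first base from the RefSeq gene start, in bins of 20 bases, over the 38 member promoters. Of 40 CHR words, 29 lie within 50 bases of the start (median -24.5), and the 64 CCAAT words lie further upstream (median -77).

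Across the member promoters, 29 of 40 CHR words lay within 50 bases on either side of the gene start, with a median position of -24.5. Positions were not counted in other promoters, so this placing is not shown to be particular to the members. Only 10 of the 64 CCAAT words lay in that stretch, and their median position was -77.

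DDX6 shRNA lowered most of these genes in MOLM-13 and a smaller number, by less, in HEL. In MOLM-13, 36 of the 45 fell and 0 rose, with a median log2 fold change of -0.52. In HEL, 18 fell and 1 rose, with a median of -0.17. Among all 16499 genes tested, 14.3% were called lower and 18.1% higher in MOLM-13, and 14.1% lower and 20.7% higher in HEL, with medians of 0.00 and 0.03. Calls rest on edgeR's quasi-likelihood test with an adjusted p under 0.05 over all genes tested, and all 45 members passed the filter on low counts. All 18 members that fell in HEL also fell in MOLM-13 (5.43% of all genes tested were called lower in both), 18 fell by the test in MOLM-13 alone, and 8 were called in neither line. None rose in both lines (8.15% of all genes), and none fell in 1 line and rose in the other (0.818% of all genes were higher in HEL and lower in MOLM-13, and 0.842% the reverse). Levels are given in CPM, counts scaled to the TMM-adjusted size of each library, which does not correct for transcript length.

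The size of the fall was modest throughout. The members' median level was 69.8% of control in MOLM-13 (range 46.5% to 107.8%) and 88.6% in HEL (55.5% to 117.8%). In MOLM-13, 18 members were lower by more than 1.5-fold and 3 of them, UBE2C, AURKB and ASPM, by at least 2-fold. In HEL only NUSAP1 was lower by more than 1.5-fold, at 1 to 2 CPM and without passing the test. Added over the 45 genes, MOLM-13 DDX6 shRNA libraries held 2602 and 2652 CPM and the control libraries 3818 and 3466 CPM. The HEL DDX6 shRNA libraries held 7144 and 6944 CPM and the control libraries 7810 and 7601 CPM. The groups did not overlap in either line, and the sum in DDX6 shRNA cells was 72.1% of control in MOLM-13 and 91.4% in HEL.

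**Figure D2:**
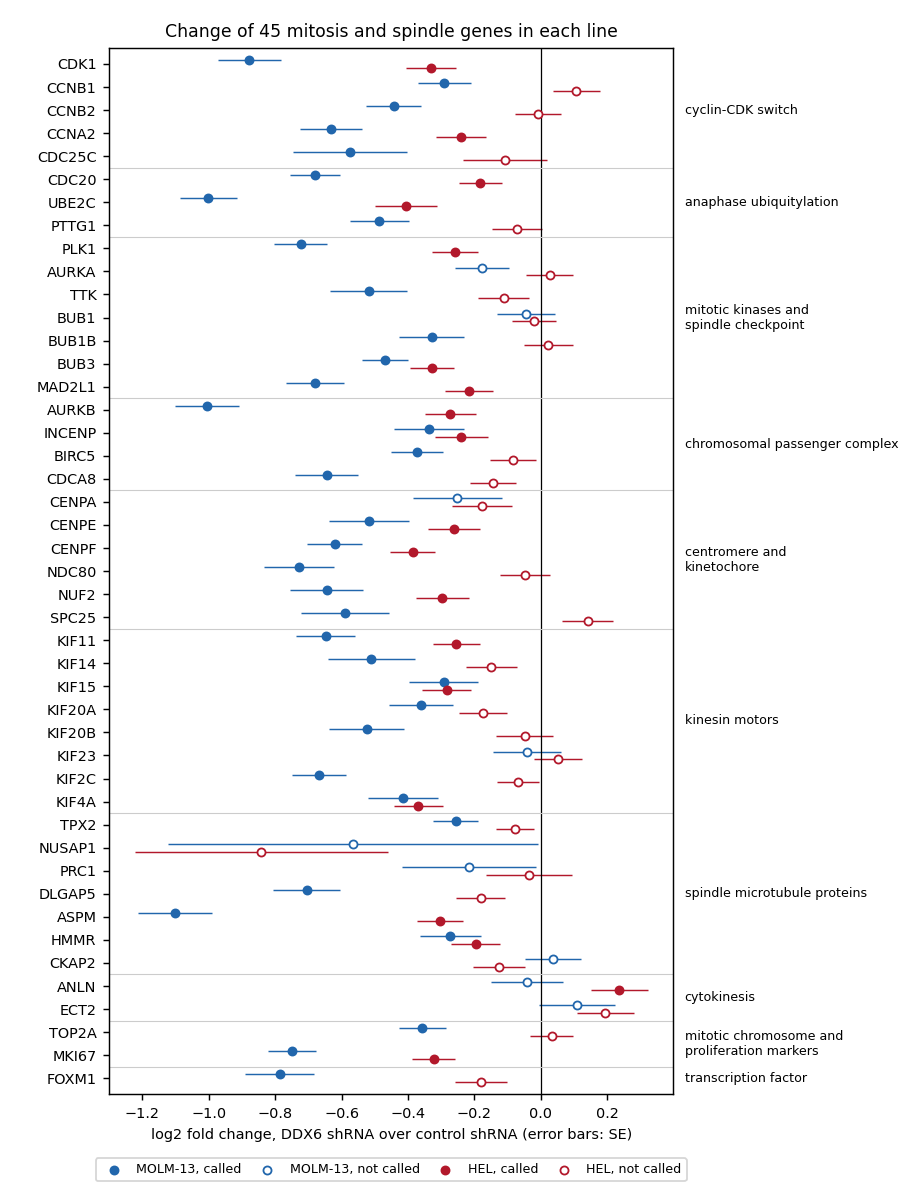
Log2 fold change of DDX6 shRNA over control shRNA for each of the 45 genes (rows, grouped by role) in MOLM-13 (blue) and HEL (red), with bars of 1 SE; filled points passed edgeR's test at an adjusted p under 0.05. MOLM-13 points lie left of the HEL points for 43 of 45 genes, and NUSAP1 has the widest bars.

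The plot of changes by role shows the lines side by side: 43 of the 45 members had the more negative log2 fold change in MOLM-13, the exceptions being NUSAP1 and CKAP2. Both DDX6 shRNA libraries lay below both control libraries for 39 members in MOLM-13 (29.2% of all genes tested did so) and for 33 in HEL (29.9%). They lay above both for 0 members in MOLM-13 (31% of all genes) and for 6 in HEL (37.5% of all genes), which were CCNB1, BUB1B, SPC25, KIF23, ANLN and ECT2. Among members the log2 fold changes had an SD of 0.276 in MOLM-13 and 0.187 in HEL, against median SEs of 0.0965 and 0.0742.

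**Figure D3:**
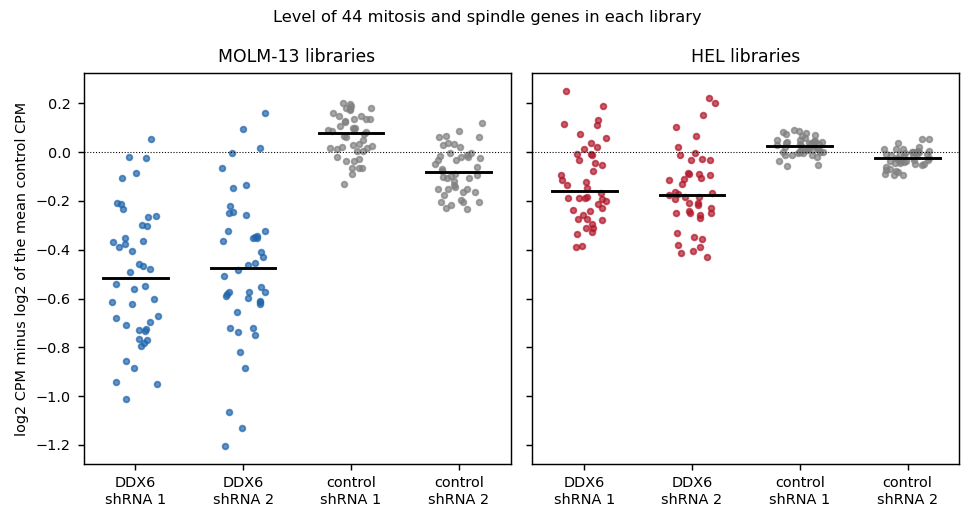
Level of each gene in each library as log2 CPM minus the log2 of its line's mean control CPM, for 44 genes (NUSAP1, at 1 to 2 CPM or below, is left out); points are genes and bars are medians. Both MOLM-13 DDX6 shRNA libraries lie well below their controls, and the HEL libraries lie closer to theirs.

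The depth of the libraries was 10719829 to 12093544 counts in HEL and 7888318 to 8174432 in MOLM-13. The MOLM-13 control libraries differed from each other more than any other pair, with a chi-square per degree of freedom of 3.37 against 1.41 to 1.69. Replicate 1 was the higher of these for 35 of 44 members. Over these members the log2 ratio of replicate 1 to replicate 2 had r = -0.64 with coding GC content and r = 0.57 with log2 coding length (descriptions only). The same correlations were 0.43 and -0.24 between the MOLM-13 DDX6 shRNA libraries, -0.05 and 0.02 between the HEL DDX6 shRNA libraries, and -0.41 and 0.03 between the HEL control libraries. The part of GC content or length in the members' changes was not tested. Leaving out either MOLM-13 control library moved them: without control replicate 1, 28 of the 36 falls passed and the members' median was -0.40, and without control replicate 2 all 36 passed and it was -0.56. Of the 36 falls in MOLM-13, 25 passed under every one of 15 alternative settings, those without a library included.

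The HEL count depended on the setting. It was 7 without control replicate 1, 10 without DDX6 shRNA replicate 1, 11 with DESeq2, 28 without either MOLM-13 control library, and 29 with HEL fitted alone. CDK1, UBE2C, BUB3, CENPF, KIF4A and MKI67 were the 6 members that fell in HEL under all 15 settings. DDX6 itself fell in both lines, with a log2 fold change of -0.80 in MOLM-13 and -0.90 in HEL, and the difference between them was 0.09 ± 0.11 (edgeR adjusted p = 0.636).

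Lineage markers fitted the labels. The 6 monocytic and myeloid markers summed to 4656 and 5155 CPM in MOLM-13 DDX6 shRNA libraries and 4733 and 4687 CPM in control libraries, and to 250.1 to 254.6 CPM in HEL libraries. The 5 erythroid markers summed to 506 and 479 CPM in HEL DDX6 shRNA libraries and 479 and 474 CPM in control libraries, and the 4 megakaryocytic markers to 1405 and 1516 CPM against 1317 and 1380 CPM. In MOLM-13 these lists held 13.9 to 23.6 and 12.4 to 18.1 CPM. HBG1 and PF4 were nearly absent from HEL (at most 28 and 19 counts), and MPO had 0 counts in every HEL library. The 3 lymphoid markers summed to at most 17 counts and the 2 epithelial and stromal markers to 10 to 53 counts in any library.

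Single markers of differentiation moved beside the members. In MOLM-13, 2 of the 6 monocytic and myeloid markers rose and 1 fell, where 18.1% of all genes tested were called higher and 14.3% lower. SPI1, FLT3 and CD33 were not called there. With so few markers, these counts are not shown to differ from the shares over all genes. CSF1R, a receptor of maturing monocytes, had 203 and 210.5 CPM in MOLM-13 DDX6 shRNA libraries and 83.3 and 84.7 CPM in control libraries (log2 fold change 1.30 ± 0.08, edgeR adjusted p = 3.62e-18). MPO, the granule enzyme of early myeloid cells, had 938 and 993 CPM in DDX6 shRNA libraries and 1391 and 1519 CPM in control libraries (-0.59 ± 0.06, edgeR adjusted p = 8.05e-11). LYZ, lysozyme, rose in MOLM-13 by 0.30 (0.20 without DDX6 shRNA replicate 2) and in HEL by 0.92 on the log2 scale, with 59.3 and 64.1 CPM in HEL DDX6 shRNA libraries and 33.9 and 31.3 CPM in control libraries. Of its exon bases 34.0% are shared with a gene on the opposite strand. In HEL, 2 of 4 megakaryocytic markers rose, GP9 (0.69 ± 0.08) and PF4 at under 2 CPM, and EPOR, the erythropoietin receptor, rose (0.71 ± 0.10). Of all genes tested, 20.7% were called higher and 14.1% lower in HEL. GP9 had 129.04 and 128.6 CPM in HEL DDX6 shRNA libraries and 83.4 and 76.6 CPM in control libraries. Of the monocytic and myeloid list, CD33 (-0.26 ± 0.07) and FLT3, at 0 to 4 counts, fell in HEL. COL1A1, of stromal cells, rose in HEL but stayed at 3.36 and 2.99 CPM in DDX6 shRNA libraries, against 0.634 and 0.251 CPM in control libraries. In MOLM-13, GP9 rose and EPOR fell, at 2.7 to 22.1 CPM, each call holding under 11 of 15 settings. These markers were picked for the text after their values were seen, and their part in the members' changes was not tested.

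Of the cyclin-CDK switch, all 5 genes fell in MOLM-13 and 2, CDK1 and CCNA2, fell in HEL. CDK1 (chr10:60778331-60794852, GRCh38, plus strand), the kinase that drives entry into mitosis, had 47.7 and 52.0 CPM in MOLM-13 DDX6 shRNA libraries and 101 and 81.9 CPM in control libraries. In HEL it had 150.2 and 139 CPM in DDX6 shRNA libraries and 189 and 174 CPM in control libraries. The groups did not overlap in either line, and the log2 fold change was -0.88 ± 0.09 (SE) in MOLM-13 (edgeR adjusted p = 2.84e-10) and -0.33 ± 0.07 in HEL (edgeR adjusted p = 0.000446). CCNA2, cyclin A2, which acts in S phase and G2, had 51.8 and 62.0 CPM against 96.0 and 80.4 CPM in control cells of MOLM-13, and 133 and 128 CPM against 158 and 150.2 CPM in control cells of HEL. Its log2 fold changes were -0.63 ± 0.09 and -0.24 ± 0.08, and the HEL fall was lost with DESeq2 and without either of 2 HEL libraries.

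The B-type cyclins, the partners of CDK1 in mitosis, fell in MOLM-13 and were not called in HEL. CCNB1 had 103 and 94.9 CPM in MOLM-13 DDX6 shRNA libraries and 122 and 119.6 CPM in control libraries, and it fell by 0.29 on the log2 scale (edgeR adjusted p = 0.00336; not called without DDX6 shRNA replicate 2). Its HEL values were 161 and 160.4 CPM in DDX6 shRNA libraries and 159 and 139.9 CPM in control libraries, a log2 fold change of 0.11 ± 0.07 that did not pass. For CCNB2 the log2 fold change was -0.44 ± 0.08 in MOLM-13, where it fell, and -0.01 ± 0.07 in HEL, where the 4 libraries lay between 136 and 144 CPM. CDC25C, the phosphatase that removes the inhibitory phosphates of CDK1, fell in MOLM-13 to 8.68 and 8.24 CPM, against 13.5 and 11.7 CPM in control cells. At that low level its log2 fold change of -0.58 ± 0.17 was lost with DESeq2 and without either of 2 MOLM-13 libraries, and it had -0.11 ± 0.13 in HEL.

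All 3 genes of anaphase ubiquitylation fell in MOLM-13, and 2 of them fell in HEL. UBE2C (chr20:45812576-45816957, plus strand), the ubiquitin-conjugating enzyme that works with APC/C, had 58.1 and 49.1 CPM in MOLM-13 DDX6 shRNA libraries and 105 and 109 CPM in control libraries. The HEL libraries held 32.4 and 31.4 CPM in DDX6 shRNA libraries and 43.4 and 41.2 CPM in control libraries. With a log2 fold change of -1.001 ± 0.09 (edgeR adjusted p = 6.47e-13) it had the smallest adjusted p of all members in MOLM-13, and in HEL the log2 fold change was -0.41 ± 0.09 (edgeR adjusted p = 0.000524). CDC20 (chr1:43358955-43363203, plus strand), the APC/C activator that the checkpoint holds in check, had 89.8 and 83.0 CPM against 132 and 145 CPM in control cells of MOLM-13. In HEL the values were 269 and 271 CPM against 306 and 307 CPM. The log2 fold changes were -0.68 ± 0.08 (edgeR adjusted p = 8.4e-10) and -0.18 ± 0.06 (edgeR adjusted p = 0.0234), and the HEL fall was lost without any 1 of the 4 HEL libraries. PTTG1, securin, which restrains the protease that cleaves cohesin, fell in MOLM-13 (59.5 and 51.7 CPM against 73.2 and 82.5 CPM in control cells) and had 93.4 and 90.9 CPM against 98.4 and 95.4 CPM in HEL. PTTG1 has near-identical copies in the genome, so its counts are less certain.

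Among mitotic kinases and checkpoint genes, 5 of 7 fell in MOLM-13 and 3 in HEL. PLK1 (chr16:23677656-23690367, plus strand), Polo-like kinase 1, had 71.3 and 71.4 CPM in MOLM-13 DDX6 shRNA libraries and 115 and 121 CPM in control libraries. In HEL it had 103 and 105 CPM in DDX6 shRNA libraries and 125 and 124 CPM in control libraries. The replicates lay close together, and the log2 fold change was -0.72 ± 0.08 in MOLM-13 (edgeR adjusted p = 3.75e-10) and -0.26 ± 0.07 in HEL (edgeR adjusted p = 0.003), where the fall was lost without control replicate 1 or DDX6 shRNA replicate 1. AURKA, Aurora kinase A, which acts at centrosomes, was called in neither line: its log2 fold change was -0.18 ± 0.08 in MOLM-13 and 0.03 ± 0.07 in HEL.

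Of the checkpoint genes, BUB3 and MAD2L1 fell in both lines and BUB1 in neither. BUB3 (chr10:123154277-123170467, plus strand), the partner through which BUB1 and BUB1B bind kinetochores, had 219.7 and 216 CPM in MOLM-13 DDX6 shRNA libraries and 323 and 280.3 CPM in control libraries. Its HEL values were 178 and 174 CPM in DDX6 shRNA libraries and 222 and 220.1 CPM in control libraries. Its log2 fold changes were -0.47 ± 0.07 (edgeR adjusted p = 4.05e-07) and -0.33 ± 0.07 (edgeR adjusted p = 0.000135), and both falls passed under all 15 settings. BUB1, the checkpoint kinase itself, was called in neither line, with 70.8 and 74.9 CPM against 83.8 and 66.4 CPM in control cells of MOLM-13 and 478 and 469 CPM against 479 and 481 CPM in control cells of HEL. MAD2L1, the MAD2 protein that binds CDC20, fell in both lines (-0.68 ± 0.09 in MOLM-13 and -0.22 ± 0.07 in HEL), and its HEL fall was lost with DESeq2 and without any 1 HEL library. TTK, the MPS1 kinase that starts checkpoint signalling, fell in MOLM-13 (-0.52 ± 0.11) and had -0.11 ± 0.08 in HEL. BUB1B, which encodes the checkpoint protein BUBR1, fell in MOLM-13 (-0.33 ± 0.10) and had 0.02 ± 0.07 in HEL. Both MOLM-13 falls were lost without control replicate 1 (log2 fold changes of -0.30 for TTK and -0.12 for BUB1B), and that of BUB1B also without DDX6 shRNA replicate 1. Control replicate 1 was the higher control library for each: 44.4 against 33.5 CPM for TTK and 76.0 against 58.4 CPM for BUB1B.

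The chromosomal passenger complex, in which the Aurora B kinase corrects faulty attachments of chromosomes to the spindle, fell in MOLM-13 with all 4 of its genes. AURKB (chr17:8204733-8210600, minus strand), the kinase, had 34.5 and 31.9 CPM in MOLM-13 DDX6 shRNA libraries and 64.9 and 68.4 CPM in control libraries. The HEL libraries held 63.3 and 68.3 CPM in DDX6 shRNA libraries and 81.2 and 77.7 CPM in control libraries. The log2 fold change was -1.01 ± 0.10 in MOLM-13 (edgeR adjusted p = 1.15e-11) and -0.27 ± 0.08 in HEL (edgeR adjusted p = 0.00502; not called with DESeq2 or without control replicate 1 or DDX6 shRNA replicate 1). CDCA8, borealin, fell by 0.65 on the log2 scale in MOLM-13 and had -0.14 ± 0.07 in HEL. BIRC5, survivin, fell by 0.37 in MOLM-13 and had -0.08 ± 0.07 in HEL. INCENP, the scaffold, fell in both lines (-0.34 ± 0.10 in MOLM-13 and -0.24 ± 0.08 in HEL), but both calls were lost with DESeq2 and without any 1 of 3 libraries of the line.

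Of the centromere and kinetochore genes, 5 of 6 fell in MOLM-13 and 3 in HEL. CENPF (chr1:214603195-214664588, plus strand), a large coiled-coil protein of the outer kinetochore, had 80.6 and 86.6 CPM in MOLM-13 DDX6 shRNA libraries and 141 and 117 CPM in control libraries. In HEL it had 305 and 307 CPM in DDX6 shRNA libraries and 413 and 386 CPM in control libraries. It had the smallest adjusted p of all members in HEL (log2 fold change -0.39 ± 0.07, edgeR adjusted p = 1.09e-05), and in MOLM-13 the log2 fold change was -0.62 ± 0.08 (edgeR adjusted p = 4.25e-08). CENPE, the kinetochore kinesin, fell in both lines (-0.52 ± 0.12 in MOLM-13 and -0.26 ± 0.08 in HEL), and CENPA, the centromeric histone variant, in neither (-0.25 ± 0.13 and -0.18 ± 0.09). The MOLM-13 fall of CENPE was lost without control replicate 1 (-0.31, edgeR adjusted p = 0.0625), and its HEL fall with DESeq2, without DDX6 shRNA replicate 1 and without control replicate 1 (-0.17).

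The NDC80 complex, which grips the ends of spindle microtubules, has 3 members here, of which NUF2 alone was called in HEL. NDC80 had 30.1 and 35.8 CPM in MOLM-13 DDX6 shRNA libraries and 60.0 and 49.2 CPM in control libraries, a fall of -0.73 ± 0.11 (edgeR adjusted p = 3.54e-07). In HEL its groups overlapped, with 126 and 119.5 CPM against 130.4 and 123 CPM in control cells. NUF2 fell in both lines, by 0.64 on the log2 scale in MOLM-13 and by 0.30 in HEL, where the call was lost with DESeq2 and without either of 2 libraries. SPC25 had 16.4 and 16.8 CPM in MOLM-13 DDX6 shRNA libraries and 22.8 and 27.1 CPM in control libraries, and fell there (-0.59 ± 0.13, edgeR adjusted p = 0.000451). Its HEL values were 92.8 and 94.3 CPM in DDX6 shRNA libraries and 90.2 and 79.4 CPM in control libraries (0.14 ± 0.08, not called).

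Among the kinesins, which walk along or take apart microtubules, 7 of 8 fell in MOLM-13 and 3 in HEL. KIF2C (chr1:44739818-44767767, plus strand), a microtubule depolymerase of centromeres, had 59.3 and 60.2 CPM in MOLM-13 DDX6 shRNA libraries and 95.2 and 94.6 CPM in control libraries. The HEL libraries held 302 and 287 CPM in DDX6 shRNA libraries and 309.7 and 309 CPM in control libraries. It fell in MOLM-13 (-0.67 ± 0.08, edgeR adjusted p = 6.44e-09) and was not called in HEL (-0.07 ± 0.06). KIF11 (Eg5), the motor that pushes spindle poles apart, fell in both lines, with 47.0 and 52.3 CPM against 81.4 and 74.1 CPM in control cells of MOLM-13 and 126 and 126 CPM against 156 and 145 CPM in control cells of HEL, where the call was lost without control replicate 1. KIF4A, a chromosome-bound motor that also works in the central spindle, fell in both, by 0.41 in MOLM-13 (not called without DDX6 shRNA replicate 1) and by 0.37 in HEL on the log2 scale. KIF15, a motor that acts beside KIF11, had -0.29 ± 0.10 in MOLM-13 and -0.28 ± 0.07 in HEL, and passed in both. The MOLM-13 fall of KIF15 was lost under 6 of 15 settings, among them without control replicate 1 (-0.19), and its HEL fall under 1, without DDX6 shRNA replicate 1.

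The other kinesins that fell did so in MOLM-13: KIF14 (-0.51 ± 0.13), KIF20A (-0.36 ± 0.10) and KIF20B (-0.52 ± 0.11). KIF14 and KIF20A are among the kinesins with a part in cytokinesis. The fall of KIF14 was lost without control replicate 1 (-0.31, edgeR adjusted p = 0.106). That of KIF20B was lost without DDX6 shRNA replicate 1 (-0.32, edgeR adjusted p = 0.0801) and was -0.31 without control replicate 1. Their HEL log2 fold changes were -0.15 ± 0.08, -0.17 ± 0.07 and -0.05 ± 0.09. KIF23, the motor of the centralspindlin complex that marks the site of division, was called in neither line, with -0.04 ± 0.10 in MOLM-13 and 0.05 ± 0.07 in HEL.

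Spindle microtubule proteins had the widest range of log2 fold changes of any role in MOLM-13 (-1.10 to 0.04). Their HEL range of -0.84 to -0.04 has NUSAP1, which was not called, at its lower end. ASPM (chr1:197084128-197146694, minus strand), which focuses spindle poles and is mutated in inherited microcephaly, had 23.4 and 20.5 CPM in MOLM-13 DDX6 shRNA libraries and 49.97 and 44.4 CPM in control libraries. In HEL it had 176 and 169.6 CPM in DDX6 shRNA libraries and 223 and 204 CPM in control libraries. Its MOLM-13 log2 fold change of -1.10 ± 0.11 (edgeR adjusted p = 4.62e-11) was the lowest of the 45, and in HEL it was -0.30 ± 0.07 (edgeR adjusted p = 0.000472; not called without control replicate 1). DLGAP5, which stabilises the microtubules that hold chromosomes, fell in MOLM-13 (-0.71 ± 0.10) and had -0.18 ± 0.07 in HEL. TPX2, which activates Aurora A on the spindle, fell in MOLM-13 by 0.26, with 134 and 135 CPM against 163 and 159 CPM in control cells, and had 683 and 651 CPM against 707 and 700.0 CPM in HEL. HMMR passed in both lines (-0.27 ± 0.09 in MOLM-13 and -0.20 ± 0.07 in HEL) but was lost under 4 of 15 settings in MOLM-13, among them without control replicate 1 (-0.10), and under 6 of 15 in HEL.

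CKAP2 was called in neither line (0.04 ± 0.08 in MOLM-13 and -0.13 ± 0.08 in HEL), and neither were NUSAP1 and PRC1. For these 2 the counts may be poor measures of the genes. In GENCODE 29, 62.2% of the exon bases of NUSAP1 and 58.4% of those of PRC1 are shared with another annotated gene. The annotation used for the deposited counts is not given, so the effect of this overlap on them is not known. NUSAP1 had 0.526 and 0.931 CPM in MOLM-13 DDX6 shRNA libraries, 0.902 and 1.26 CPM in control libraries, and 1.03 and 0.905 CPM against 1.9 and 1.59 CPM in HEL. PRC1 had 7.1 and 7.05 CPM against 8.5 and 7.94 CPM in MOLM-13 and 16.3 and 13.03 CPM against 15.9 and 14.2 CPM in HEL. Of the rest, 29 members share no exon base with another gene (25 of these fell in MOLM-13 and 12 in HEL) and 14 share 0.149% to 15.9%; the strand setting of the counting is not known.

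Neither of the 2 genes grouped here under cytokinesis fell in either line. Members grouped under other roles act in cytokinesis too. Among them, KIF14 (-0.51) and KIF20A (-0.36) fell in MOLM-13, and KIF23 was called in neither line. ANLN, anillin, which scaffolds the contractile ring, had 76.7 and 75.2 CPM in HEL DDX6 shRNA libraries and 64.4 and 64.5 CPM in control libraries. It rose (log2 fold change 0.24 ± 0.09, edgeR adjusted p = 0.0279), but the call was lost under 10 of 15 settings, among them DESeq2, upper-quartile scaling, total counts alone and the omission of any 1 HEL library. In MOLM-13 it had 40.4 and 44.01 CPM against 49.97 and 36.9 CPM in control cells, groups that overlap (-0.04 ± 0.11). ECT2, the exchange factor that activates RhoA at the division site, had 56.4 and 57.0 CPM in HEL DDX6 shRNA libraries and 50.5 and 48.6 CPM in control libraries (0.19 ± 0.08, edgeR adjusted p = 0.0706) and a log2 fold change of 0.11 ± 0.11 in MOLM-13.

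Of the usual proliferation markers, MKI67 fell in both lines and TOP2A in MOLM-13. MKI67 (chr10:128096659-128126385, minus strand), which encodes the Ki-67 protein that coats mitotic chromosomes, had 121 and 126 CPM in MOLM-13 DDX6 shRNA libraries and 210.5 and 205 CPM in control libraries. Its HEL values were 345 and 306 CPM in DDX6 shRNA libraries and 393 and 423 CPM in control libraries. It fell in both, with log2 fold changes of -0.75 ± 0.07 (edgeR adjusted p = 1.85e-11) and -0.32 ± 0.06 (edgeR adjusted p = 8.84e-05). TOP2A, topoisomerase II alpha, which untangles sister chromatids, had 228 and 231 CPM in MOLM-13 DDX6 shRNA libraries and 323 and 265 CPM in control libraries, and fell (-0.36 ± 0.07, edgeR adjusted p = 7.73e-05). Without control replicate 1, the higher of its control libraries, the log2 fold change was -0.20 and still passed. In HEL the groups overlapped, with 856 and 805 CPM against 832 and 792 CPM in control cells (0.03 ± 0.06).

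FOXM1 (chr12:2857681-2877155, minus strand), the forkhead factor that activates many of these promoters in G2, had 29.6 and 25.9 CPM in MOLM-13 DDX6 shRNA libraries and 48.0 and 47.8 CPM in control libraries. The HEL libraries held 66.9 and 67.6 CPM in DDX6 shRNA libraries and 73.3 and 79.0 CPM in control libraries. The groups did not overlap in either line, but the change passed in MOLM-13 (-0.79 ± 0.10, edgeR adjusted p = 5.18e-08) and not in HEL (-0.18 ± 0.08, edgeR adjusted p = 0.0714). Of its exon bases 15.9% are shared with ITFG2 on the opposite strand.

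The difference between the lines was tested directly, as the MOLM-13 log2 fold change minus the HEL one. It was called negative for 23 of the 45 members and positive for 0, where 7.59% and 7.53% of all genes tested were called, and the members' median difference was -0.39 against -0.03 over all genes. The most negative were ASPM (-0.80 ± 0.13, edgeR adjusted p = 1.67e-05), AURKB (-0.73 ± 0.12, edgeR adjusted p = 2.73e-05), SPC25 (-0.73 ± 0.15, edgeR adjusted p = 0.000585) and NDC80 (-0.68 ± 0.13, edgeR adjusted p = 0.000172). FOXM1 (-0.61), KIF2C (-0.60), UBE2C (-0.59) and CDK1 (-0.55) followed, all with edgeR adjusted p of at most 0.000983. By role, the difference was called for 4 of 5 genes of the cyclin-CDK switch, 3 of 3 of anaphase ubiquitylation, 4 of 7 mitotic kinases and checkpoint genes and 3 of 8 kinesins. It was called for 0 of the 2 genes grouped under cytokinesis.

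The difference did not pass for 22 members, which does not show that their changes were alike. Among those that fell in both lines it was -0.01 ± 0.13 for KIF15, -0.05 ± 0.13 for KIF4A, -0.08 ± 0.12 for HMMR and -0.10 ± 0.13 for INCENP. It was -0.14 ± 0.10 for BUB3, -0.24 ± 0.11 for CENPF and -0.26 ± 0.14 for CENPE. All of these had edgeR adjusted p of at least 0.135. NUF2 had the most negative difference of this kind, -0.35 ± 0.14 (edgeR adjusted p = 0.0778). Of the 23 called differences, 11 passed under every one of 14 alternative settings: CDK1, CDC20, UBE2C, PLK1, AURKB, NDC80, SPC25, KIF2C, ASPM, MKI67 and FOXM1. Without MOLM-13 control replicate 1 the difference was -0.34 for CDK1. The count was 14 without HEL control replicate 2 and 15 without MOLM-13 DDX6 shRNA replicate 1.

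Control cells of the lines started from different levels. Between HEL control and MOLM-13 control libraries, 41 members were higher in HEL and 2 lower (40.8% of all genes tested were higher and 40.4% lower), with a median log2 difference of 0.97. The lines were deposited in separate tables, so line and table cannot be told apart in this comparison. BUB1 (2.68), ASPM (2.18), TPX2 (2.13) and KIF14 (2.08) had the largest log2 differences in favour of HEL. UBE2C (-1.34) and BUB3 (-0.45) were lower in HEL, and PLK1 (0.08) and NUSAP1 (0.69) were not called. Per kilobase of exon, TPX2 (195.1), CDC20 (150.2) and TOP2A (126) had the highest levels of the 45 in HEL control cells, in CPM per kilobase, and UBE2C (83.4) and CDC20 (67.9) in MOLM-13 control cells.

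**Figure D4:**
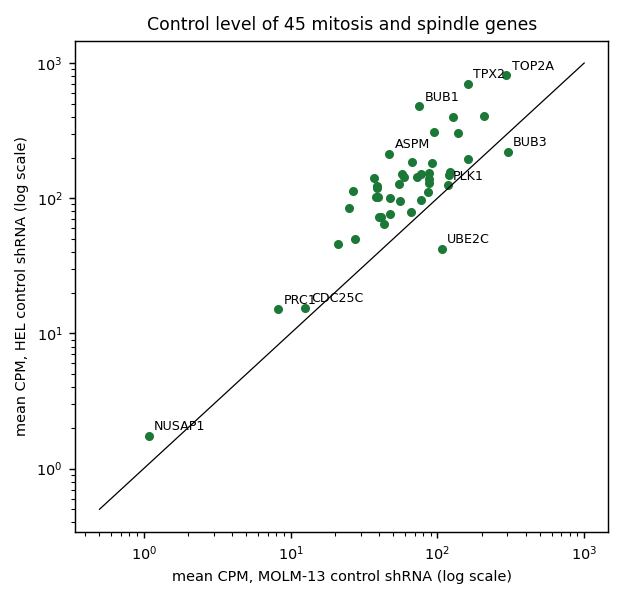
Mean CPM of each of the 45 genes in HEL control libraries (vertical, log scale) and MOLM-13 control libraries (horizontal, log scale); each point is a gene and the line marks equal levels. Most points lie above the line, with BUB1 and TPX2 far above it and UBE2C and BUB3 below.

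The plot of control levels shows the order of the genes to be broadly shared (r = 0.87 between log2 levels over 45 genes, a description only). Over 45 genes, log2 control CPM and the log2 fold change had r = -0.08 (Spearman rho -0.16) in MOLM-13 and r = 0.29 (rho -0.03) in HEL. The changes themselves correlated between the lines with r = 0.53 and rho = 0.56, across genes that are not independent of each other.

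The members share features that their selection did not use. The median GC content of their coding sequence was 43.6%, against 52.5% for 12920 tested coding genes, and their median coding length was 2175 bases against 1431. Their median 3′ UTR was 620 bases, against 952. Among members, GC content and the log2 fold change had r = -0.15 in MOLM-13 and -0.18 in HEL (45 genes, a description only). Over all tested coding genes, the median log2 fold change in the quartile of lowest GC, which holds 25 members, was 0.00 in MOLM-13 and 0.01 in HEL, where the members in it had -0.51 and -0.11. In the quartile of highest GC the medians were 0.03 and 0.05.

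Members with and without a CHR word fell in both lines. With it, 22 of 29 fell in MOLM-13 and 13 of 29 in HEL, at median log2 fold changes of -0.52 and -0.18. Without it, 8 of 9 fell in MOLM-13 and 3 of 9 in HEL, at -0.52 and -0.13. AURKB and KIF2C, which fell in MOLM-13, hold no CHR word in the window, and BUB1 and KIF23, called in neither line, do. Among the 523 other tested genes whose promoters hold both a CHR and a CCAAT word, 23.3% were called lower in MOLM-13 and 18.0% in HEL, at medians of -0.08 and 0.00. Among the 6466 with neither word the shares were 13.7% and 15.1%, at medians of 0.02 and 0.05.

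Genes of neighbouring pathways were counted in 7 further lists, each read against 14.3% of genes called lower in MOLM-13 and 14.1% in HEL. Of 34 other centromere and kinetochore genes, 21 fell and 0 rose in MOLM-13, and 8 fell and 1 rose in HEL. CENPH, of the constitutive centromere network, fell in both lines, to 34.9 and 35.4 CPM against 59.8 and 59.7 CPM in control cells of MOLM-13 and to 37.8 and 36.5 CPM against 55.9 and 58.7 CPM in control cells of HEL. SPC24, the partner of SPC25 in the NDC80 complex, fell in MOLM-13 (-0.91 ± 0.12) and had -0.20 ± 0.08 in HEL. Of 20 condensin and cohesin genes and regulators, 13 fell in MOLM-13 and 7 in HEL, and 0 rose. CDCA5, sororin, which keeps cohesin on chromatin, fell by 1.13 on the log2 scale in MOLM-13 and by 0.72 in HEL.

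Of 40 other centrosome, spindle and cytokinesis genes, 15 fell and 1 rose in MOLM-13, and 14 fell and 3 rose in HEL. KIFC1, a minus-end motor that bundles spindle microtubules, fell in both (-0.89 ± 0.09 in MOLM-13 and -0.46 ± 0.07 in HEL). The 14 regulators of CDK1 activity included 11 that fell and 0 that rose in MOLM-13, and 3 that fell and 1 that rose in HEL. CKS1B, a small CDK-binding protein, fell in MOLM-13 (-0.83 ± 0.10) and had -0.09 ± 0.08 in HEL.

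Of 17 subunits and regulators of the APC/C, 2 fell (11.8%) and 1 rose in MOLM-13, and 3 fell (17.6%) and 3 rose in HEL. The shares called lower lie near those over all genes, with median log2 fold changes of -0.05 and 0.10. CDC27, a core subunit, rose in HEL to 273 and 261 CPM, against 203 and 196 CPM in control cells. FBXO5, the APC/C inhibitor EMI1, fell in both lines (-0.67 ± 0.13 in MOLM-13, -0.42 without control replicate 1, and -0.37 ± 0.09 in HEL; the HEL fall was lost with DESeq2), as did UBE2S, which extends ubiquitin chains for APC/C (-0.73 ± 0.09 and -0.21 ± 0.08, with the HEL fall lost under 5 of 15 settings).

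**Figure D5:**
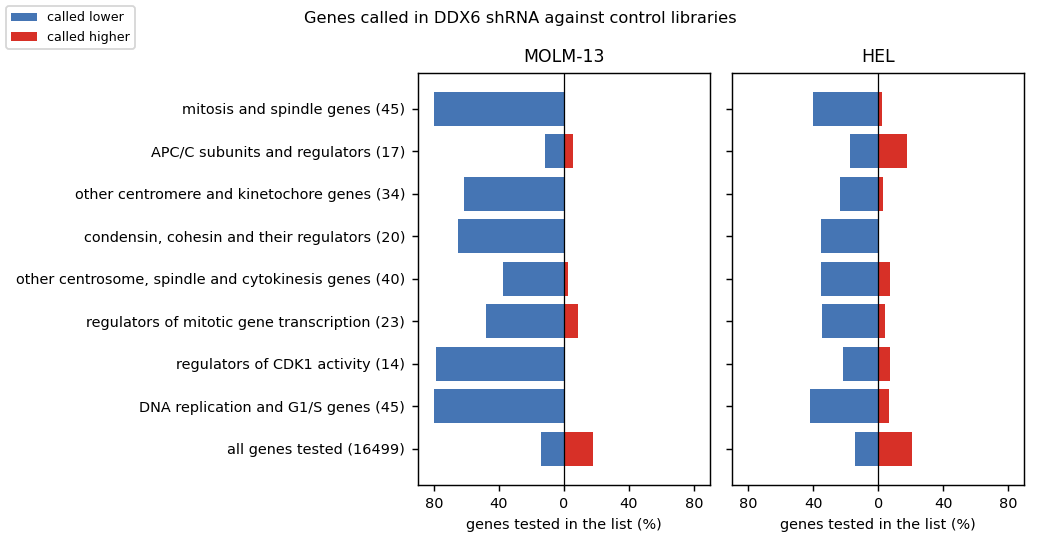
Share of the tested genes of each list (rows, with their number) that edgeR called lower (blue, to the left) or higher (red, to the right) in DDX6 shRNA against control libraries, in MOLM-13 (left panel) and HEL (right panel), in percent. The bottom row is all 16499 genes tested, of which 14.3% were lower and 18.1% higher in MOLM-13 and 14.1% lower and 20.7% higher in HEL; the mitosis and spindle genes in the top row stand at 80% lower in MOLM-13 and 40% in HEL.

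Genes of DNA replication and the G1/S step, which act earlier in the cycle, were counted in the same way. Of 45 such genes, 36 fell and 0 rose in MOLM-13, and 19 fell and 3 rose in HEL, with median log2 fold changes of -0.50 and -0.13, against -0.52 and -0.17 for the mitosis and spindle genes. The difference between lines was called for 26 of the 45. FEN1, the flap endonuclease of lagging-strand synthesis, fell to 81.8 and 73.3 CPM against 173 and 171 CPM in control cells of MOLM-13, and to 77.4 and 76.6 CPM against 97.3 and 101 CPM in control cells of HEL. 

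Of 23 regulators of mitotic gene transcription, 11 fell and 2 rose in MOLM-13, and 8 fell and 1 rose in HEL. MYBL2 (B-MYB), the MuvB partner that switches these promoters on, fell in MOLM-13 (-0.25 ± 0.07, edgeR adjusted p = 0.00628; lost without either of 2 libraries) and had -0.02 ± 0.07 in HEL. E2F1 fell in MOLM-13 (-0.53 ± 0.10) and had -0.01 ± 0.08 in HEL, and E2F2 fell in both lines (-1.11 ± 0.17 and -0.92 ± 0.11). The 2 that rose in MOLM-13 were the pocket protein genes RB1 (0.29 ± 0.09, edgeR adjusted p = 0.0109) and RBL2 (0.25 ± 0.09, edgeR adjusted p = 0.0301), whose products repress cell cycle promoters. RBL2 had 85.5 and 84.4 CPM against 81.0 and 61.5 CPM in control cells of MOLM-13, and its rise was lost under 6 of 15 settings and that of RB1 under 2 of 15. Without control replicate 2 they were 0.08 for RBL2 and 0.10 for RB1, and without control replicate 1 they were 0.47 and 0.53. In HEL, RBL2 fell (-0.34 ± 0.09; not called without control replicate 1).

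CDKN1A, which encodes the CDK inhibitor p21, was the 1 regulator that rose in HEL, where its level was far below that of MOLM-13. It had 361 and 353 CPM in MOLM-13 DDX6 shRNA libraries and 310.0 and 348 CPM in control libraries, and 38.8 and 39.4 CPM in HEL DDX6 shRNA libraries and 5.15 and 4.85 CPM in control libraries. The log2 fold change was 0.12 ± 0.07 in MOLM-13 (edgeR adjusted p = 0.185) and 2.96 ± 0.13 in HEL (edgeR adjusted p = 6.28e-23). Whether p21 had a part in the members' changes was not tested. Among the genes named from these lists, RBL2 shares 18.2% of its exon bases with other genes, KIFC1 12.7%, FEN1 8.68%, CDKN1A 4.79%, FBXO5 4.1%, SPC24 3.1% and CDC27 1.85%. Unstranded counting could not separate these. Part of the FEN1 overlap is with FADS2 on the same strand, which stranded counting could not separate either.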

How the data were processed

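Transcript levels were measured by RNA sequencing in 8 libraries, 2 per group, of HEL and MOLM-13 cells. Per the labels, the miRNeasy Micro kit was used for RNA and the NEBNext Ultra II kit for libraries. Not given in the sources used here are a counting tool, gene annotation, strand setting and the part played by GRCh38, STAR, DESeq2 and SAMtools 1.12, which the submitters' processing notes name. The authors deposited raw counts, whole numbers for every gene, in 1 table per line. Columns were assigned to samples by line, shRNA and replicate number in their names, and 0 columns were left unused. Total counts were 7888318 to 12093544 per library, and no replicates were identical or within sampling noise.

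The joined tables entered 1 edgeR 4.0.16 model (R 4.3.3) with 1 mean per group (4 groups), TMM scaling, filterByExpr with a minimum count of 10, glmQLFit and glmQLFTest. P-values were adjusted by Benjamini-Hochberg over the 16499 genes that passed, two-sided, and called under 0.05. The contrasts were DDX6 shRNA against control in each line, the difference between these changes, and HEL control minus MOLM-13 control. Each SE was taken from the F statistic, as the size of the log2 fold change over its square root. The model was also run on simulated counts, with the same variation beyond counting noise set for every gene and library. That setting lacks the larger difference seen between the MOLM-13 control libraries. Positions, exon lengths, GC content and exon overlaps came from GENCODE 29 (GRCh38) and promoters from RefSeq (GRCh38.p14).

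The members and lists were chosen with earlier results of these data known, so no list has a test of its own. Values per library are given for the 8 called members with the smallest adjusted p in each line, except KIF4A and KIF15. They are also given for the member of each role with the largest mean absolute change (ECT2 in HEL alone). Most members called for the difference have them too, as do others that complete a role. From the other lists, genes came from the 3 called with the smallest adjusted p per line; any regulator of mitotic transcription could be named. The main model did not pair libraries by replicate number. The correlation of same-numbered deviations was 0.03 in HEL and -0.01 in MOLM-13 over all tested genes, and 0.13 and -0.26 over the 9171 above 10 CPM. These values do not settle whether the numbers pair the libraries. Alternatives were RLE, upper-quartile and total-count scaling, no filter, DESeq2 1.42.0, each line alone, a replicate block and the omission of each library. The result of 1 marker gene is not reported here.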

Additional observations from a re-analysis of the deposited data

Results flagged for a closer look

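For 23 of the 45 mitosis and spindle genes, the change after DDX6 shRNA differed between the lines by edgeR's test of the difference itself. All of these were more negative in MOLM-13. The log2 fold change of MOLM-13 minus the HEL one was -0.55 for CDK1, -0.40 for CCNB1, -0.43 for CCNB2 and -0.39 for CCNA2. For anaphase ubiquitylation it was -0.50 for CDC20, -0.59 for UBE2C and -0.41 for PTTG1. Among kinases and checkpoint genes it was -0.46 for PLK1, -0.41 for TTK, -0.35 for BUB1B and -0.47 for MAD2L1. For passenger complex and kinetochore genes it was -0.73 for AURKB, -0.50 for CDCA8, -0.68 for NDC80 and -0.73 for SPC25. For motors and spindle proteins it was -0.39 for KIF11, -0.48 for KIF20B, -0.60 for KIF2C, -0.52 for DLGAP5 and -0.80 for ASPM. It was -0.39 for TOP2A, -0.43 for MKI67 and -0.61 for FOXM1.

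The same difference was called for 9 of the genes named from other lists. It was -0.51 for UBE2S, -0.71 for SPC24, -0.40 for CDCA5, -0.43 for KIFC1, -0.52 for E2F1, -0.74 for CKS1B and -0.79 for FEN1. For CDKN1A it was -2.85, the widest among these genes, with the rise in HEL. Of these genes RBL2 alone had a positive difference, 0.59.

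Among the lineage markers, the same difference was 1.18 for CSF1R, -0.62 for LYZ and -1.11 for EPOR. Of the 23 members, 12 lost the call under at least 1 of 14 settings. TTK and BUB1B kept it under 3, CCNA2, PTTG1 and KIF20B under 9, KIF11 under 10, CCNB1 and CCNB2 under 12, and MAD2L1, CDCA8, DLGAP5 and TOP2A under 13. Without MOLM-13 control replicate 1 the difference was -0.15 for TTK, -0.11 for BUB1B, -0.22 for CCNA2, -0.23 for KIF20B, -0.33 for DLGAP5 and -0.20 for TOP2A; without MOLM-13 DDX6 shRNA replicate 2 it was -0.27 for PTTG1. Without MOLM-13 control replicate 2 it was -0.30 for UBE2S. The calls for UBE2S, CDCA5, KIFC1, E2F1 and CSF1R were each lost without at least 1 library.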

How the results depend on the processing

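The count of members called lower in MOLM-13 stayed within 1.5 times 36 under every setting (28 to 36 with 1 library left out). The count called lower in HEL, 18, was 11 with DESeq2 and 29 with each line fitted alone, and 7 to 28 with 1 library left out. The 1 HEL rise, that of ANLN, was called under RLE scaling and without the filter; the number of HEL rises was 0 with upper-quartile scaling, total counts alone and DESeq2, 2 with each line fitted alone, and 0 to 1 with 1 library left out. Leaving out 1 library gave 0 to 1 rises in MOLM-13, 0 to 1 positive differences between the lines and 14 to 26 negative ones. It moved the members' median log2 fold change between -0.56 and -0.40 in MOLM-13 and between -0.21 and -0.15 in HEL. With 1 library left out, the lone library of its group was assumed to vary like the other groups.

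Values that changed sign were all of genes not called in the line. In HEL, AURKA, BUB1B and TOP2A had -0.0064, -0.011 and -0.00086 with upper-quartile scaling, -0.013, -0.018 and -0.0076 with total counts alone, and -0.0083, -0.013 and -0.0026 with each line fitted alone. In MOLM-13, CKAP2 had -0.0091 with total counts alone. With 1 library left out, the HEL values ran from -0.0096 to 0.061 for AURKA, -0.014 to 0.028 for BUB1B, -0.014 to 0.077 for TOP2A, -0.057 to 0.038 for CCNB2, -0.21 to 0.12 for PRC1, -0.13 to 0.031 for KIF20B, -0.081 to 0.034 for MYBL2, -0.048 to 0.0302 for E2F1 and -0.35 to 0.46 for CSF1R. The MOLM-13 values ran from -0.19 to 0.14 for BUB1, -0.13 to 0.067 for KIF23, -0.15 to 0.27 for CKAP2 and -0.23 to 0.1999 for ANLN.

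The replicate numbers are not shown to pair the libraries, so the replicate block is only an alternative. With it 0 members rose and 17 fell in HEL (ANLN and HMMR lost), and 0 rose and 36 fell in MOLM-13. A replicate block with the MOLM-13 control numbers crossed, chosen after seeing a correlation of -0.26 over genes above 10 CPM, gave 3 rises and 24 falls in HEL and 0 and 37 in MOLM-13. NUSAP1 had the lowest level and the widest SE of the members. At 0.526 to 1.9 CPM its SE was 0.56 in MOLM-13 and 0.38 in HEL, against median SEs of 0.0965 and 0.0742 over the members. The reason for its low counts was not tested.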
